A study of Homo sapiens with 24 samples.

Results

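The transcripts described here encode the anaphase-promoting complex, or APC/C, and proteins that work with it. They were followed over a time series of K562 cells, an established line of human leukaemia cells of erythroid character. The 10 listed genes were the coactivators CDC20 and FZR1, the inhibitor FBXO5, the ubiquitin-conjugating enzymes UBE2C and UBE2S, the substrate PTTG1, and the complex subunits CDC16, CDC23, CDC27 and ANAPC1. They were chosen by name, and their symbols were mapped to the Ensembl identifiers of the expression table. Of the 10 genes, 9 were found among the 12285 genes of the table, and UBE2C is not analysed here.

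Cells had been grown in RPMI with 10% bovine calf serum and P/S, and a synchronous population had been collected by centrifugal elutriation, which sorts cells by size. RNA was then sequenced every 2 h from 0 h to 46 h, which gave 24 samples with 1 sample per time point. No drug, knockdown or other treatment separated the samples, so time was the only variable. This was 1 time course of 1 cell line without replicates, and every value is that of a single library. A cycle of 24 h was assumed, so the first day ran from 0 h to 22 h and the second from 24 h to 46 h.

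The study named 16 h and 18 h as anomalous time points, which it calls STRIPEs, and 32 h as a mild one. It holds that STRIPEs are likely technical. Those at 16 h and 18 h it describes as bimodal, each gene being raised or lowered. Rhythm calls and day ranges of the members are given with and without 16 h and 18 h, and second-day ranges also without 32 h. Expression was measured as FPKM, fragment counts scaled by transcript length and by the reads mapped in the sample, which summed to between 456791 and 591309 over all genes of a sample. The highest sums were those of 16 h (566247) and 18 h (591309), against at most 520382 elsewhere. The depth of the libraries is unknown, since FPKM does not give counts. All 9 erythroid marker genes had values, with means from 13.2 FPKM for EPOR to 2225 FPKM for HBG2.

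The APC/C is a ubiquitin ligase that marks mitotic proteins for destruction. CDC20 brings substrates to it in mitosis, and FZR1 (CDH1) takes over at the end of mitosis and through G1. Among the substrates are securin, which PTTG1 encodes and which holds sister chromatids together by inhibiting separase, and cyclin B. FBXO5 (EMI1) inhibits the complex from the start of S phase until mitosis, and UBE2S extends ubiquitin chains on its substrates. ANAPC1 is the large scaffold subunit, and CDC16, CDC23 and CDC27 are tetratricopeptide repeat subunits of its arc. Transcripts of CDC20 and PTTG1 are known to accumulate towards mitosis in cycling cells, and FBXO5 is known as a gene that E2F factors induce at the start of S phase.

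Promoters of CDC20, PTTG1 and FBXO5 are shown because the first pair had the most alike time courses of all member pairs and the third had a different one. Each run is the 250 bases before the annotated gene start, 5′ to 3′ on the strand of the gene, from RefSeq on GRCh38.p14, at chr1:43358731-43358980 for CDC20 (plus strand), chr5:160421605-160421854 for PTTG1 (plus strand, the more upstream of its 2 windows) and chr6:152983042-152983291 for FBXO5 (minus strand, the more downstream of its 2 windows). Capitals mark 2 motifs found on either strand, the cell cycle genes homology region (CHR, letters TTTGAA) and the CCAAT box. Overlapping matches run together.
CDC20: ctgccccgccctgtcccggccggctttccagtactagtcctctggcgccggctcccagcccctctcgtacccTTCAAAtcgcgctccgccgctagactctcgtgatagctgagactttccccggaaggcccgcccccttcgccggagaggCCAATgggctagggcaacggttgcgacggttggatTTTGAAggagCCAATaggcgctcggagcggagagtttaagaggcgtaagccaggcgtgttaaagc
PTTG1: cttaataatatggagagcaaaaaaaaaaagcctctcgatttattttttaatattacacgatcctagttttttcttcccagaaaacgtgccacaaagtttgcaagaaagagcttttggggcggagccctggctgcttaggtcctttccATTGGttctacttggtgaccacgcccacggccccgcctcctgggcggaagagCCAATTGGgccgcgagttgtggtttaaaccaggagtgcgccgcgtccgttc
FBXO5: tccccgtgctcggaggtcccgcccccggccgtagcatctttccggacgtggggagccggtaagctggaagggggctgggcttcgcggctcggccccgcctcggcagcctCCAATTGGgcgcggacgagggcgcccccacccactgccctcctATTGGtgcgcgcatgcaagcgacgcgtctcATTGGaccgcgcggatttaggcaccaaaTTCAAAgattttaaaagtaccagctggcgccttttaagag

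The CDC20 promoter held 2 CHR matches and 2 CCAAT matches, with a CHR starting 65 bases before the gene start between CCAAT matches at 100 and 55 bases. The FBXO5 window shown held 1 CHR match and 4 CCAAT matches, and the PTTG1 window held 3 CCAAT matches and no CHR match. The window not shown for FBXO5 held neither motif. The one for PTTG1 overlaps the window shown and held the same 3 CCAAT matches. Windows were on hand for the 9 members analysed, 12 in all. A CHR was found in 3 members (CDC20, FBXO5 and, at 226 bases in its upstream window, FZR1), a CCAAT box in 7, and both in 2. Over all 35116 promoter windows of this length, 13.3% held a CHR, 32.0% a CCAAT box and 4.69% both. These shares are per window, while a member was counted if any of its windows held the motif. A match describes the letters only, and factor binding was not measured.

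FPKM is scaled by transcript length, so levels can be set beside each other between genes. Leaving out 16 h and 18 h, PTTG1 had the highest level of the members, with a mean of 111 ± 23.5 FPKM (SD over 22 time points, which is a spread over time and not over replicates). CDC20 followed with 59.1 ± 17.7 FPKM, FBXO5 with 58.3 ± 4.98, CDC27 with 48.6 ± 3.74, CDC16 with 41.5 ± 2.34, UBE2S with 40.7 ± 15.4, CDC23 with 40.1 ± 1.54, ANAPC1 with 17.5 ± 2.44 and FZR1 with 16.1 ± 2.18 FPKM. PTTG1 was above CDC20 at all 22 time points and CDC23 above ANAPC1 at all 22. Neighbours in this order that lay within 1 SD of each other were CDC20 and FBXO5 (CDC20 above at 11 of 22), CDC16 and UBE2S (15 of 22), UBE2S and CDC23 (12 of 22), and ANAPC1 and FZR1 (16 of 22). The coactivator FZR1 and the scaffold ANAPC1 were therefore the least abundant transcripts of the members. The 3 repeat subunits among the members, CDC16, CDC23 and CDC27, lay between 40.1 and 48.6 FPKM.

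The members differed most in how far they moved over time. Over the 22 time points, the ratio of the highest to the lowest FPKM was 6.29 for UBE2S, 3.39 for CDC20 and 2.47 for PTTG1. For the other 6 members it was between 1.15 (CDC23) and 1.65 (FZR1). Because there were no replicates, scatter was described by the SD of the difference of a value from the mean of both neighbouring time points. It was taken on log2(FPKM + 1), over 18 time points free of 16 h and 18 h. It also holds the errors of the neighbours and any bend of the time course, so it overstates the error of 1 value. This SD was 0.05 for CDC23, 0.06 for FBXO5, 0.17 for CDC20, 0.18 for PTTG1 and 0.80 for UBE2S, against a median of 0.15 over all genes. The spread over the series was 2.51 times this SD for CDC20, 2.18 times for FBXO5 and 1.78 times for PTTG1, and 0.79 times for UBE2S. Thus CDC20, PTTG1 and FBXO5 moved little from one time point to the next compared with the whole series, while UBE2S jumped between neighbours.

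**Figure D1:**
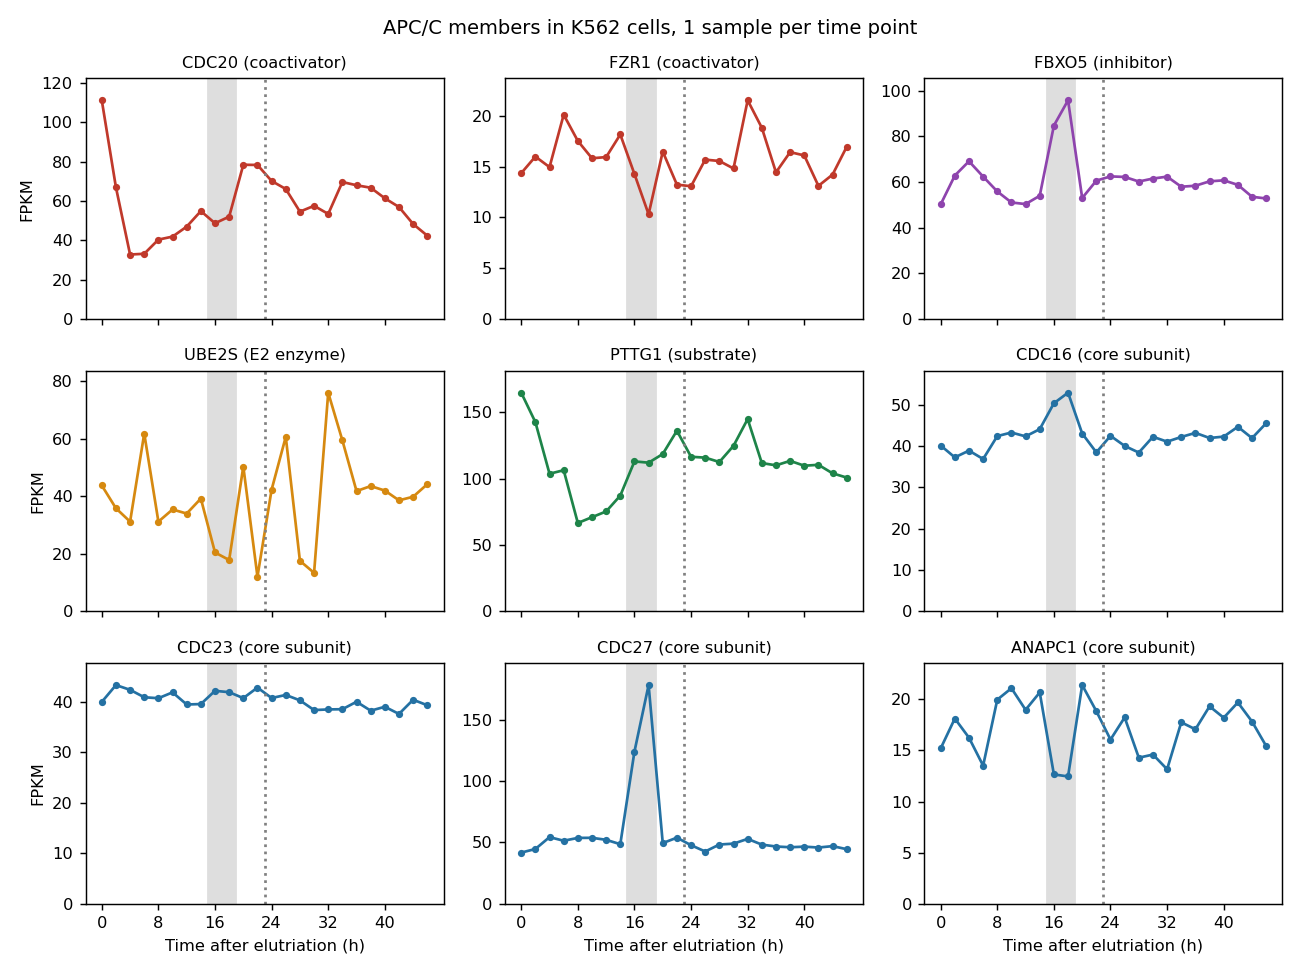
FPKM (vertical axes, each from 0) of the 9 members against time after elutriation in hours, 1 sample per point, with 16 h and 18 h shaded and a dotted line between the days. CDC20 and PTTG1 start at their highest values, CDC27 and FBXO5 peak at 16 h and 18 h, UBE2S jumps between neighbouring points, and CDC23 is nearly flat.

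CDC20, the mitotic coactivator, ranged from 32.8 FPKM at 4 h through a median of 55.9 to 111 FPKM at 0 h. It measured 66.9 FPKM at 2 h, stayed near its lowest value at 6 h (33.2 FPKM), and was then higher at each measured hour up to 54.9 FPKM at 14 h. It reached 78.4 FPKM at 20 h and 78.3 at 22 h, the next highest values after 0 h. On the second day it was highest at 24 h (70.2 FPKM), was between 53.4 and 69.6 FPKM from 28 h to 34 h, and was lowest at 46 h (42.4 FPKM). In bulk RNA, a lower value from fewer cells of a stage and one from less RNA per cell cannot be told apart. Its highest value was 3.39 times its lowest on the first day and 1.66 times on the second. Without the 0 h sample, an alternative chosen after the values were seen, its first-day difference between peak and trough was 1.23 instead of 1.73 on the log2(FPKM + 1) scale. A pseudogene, CDC20P1, was listed separately at a median of 1.07 FPKM, and reads that it shares with CDC20 could not be told apart.

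The genes most like CDC20 over the 22 time points were named by Spearman's correlation, among the other 7168 genes that averaged 10 FPKM or more. They were CCNB2 (cyclin B2, correlation 0.93), SLC25A32 (0.88), PRR11 (0.83), CCNB1 (cyclin B1, 0.80) and GPSM2 (a spindle orientation protein, 0.80). CCNB1, itself an APC/C substrate, was at 167.7 FPKM at 0 h, 65.0 at 4 h and 234.9 at 20 h. These points share their libraries and normalization, so the coefficients are descriptions. Among the 36 pairs of members, this correlation was highest between CDC20 and PTTG1 (0.73), next between CDC16 and ANAPC1 (0.47), and lowest between FBXO5 and CDC16 (-0.54).

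FZR1, the coactivator of late mitosis and G1, ranged from 10.3 FPKM at 18 h through a median of 15.7 to 21.5 FPKM at 32 h. It was at 20.1 FPKM at 6 h and between 13.1 and 18.8 FPKM at the other time points besides 18 h and 32 h. The first-day and second-day ratios of highest to lowest were 1.52 and 1.65, and the second was 1.44 without the 32 h sample. FZR1 overlaps MFSD12, a gene on the opposite strand with a mean of 49.8 FPKM, and reads from the overlap cannot be told apart where strand was not used. The Spearman correlation of FZR1 with MFSD12 was 0.52 over the 22 time points.

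FBXO5, the inhibitor of the complex, ranged from 50.2 FPKM at 0 h through a median of 60.3 to 95.9 FPKM at 18 h. Besides 16 h and 18 h, it was highest at 4 h (69.1 FPKM), when CDC20 was lowest, and was back at 50.4 FPKM at 12 h. On the second day it stayed between 52.8 FPKM at 46 h and 62.5 FPKM at 24 h. The ratios of highest to lowest were 1.38 on the first day and 1.18 on the second. The genes most like it were SS18 (correlation 0.92), CCNE1 (cyclin E1, 0.84), MUC20-OT1 (0.80), GEN1 (a Holliday junction nuclease, 0.79) and ZNF28 (0.78). The Spearman correlation of FBXO5 with CDC20 was -0.02.

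PTTG1, which encodes securin, ranged from 66.6 FPKM at 8 h through a median of 112 to 164.8 FPKM at 0 h. It was at 142.6 FPKM at 2 h and about 105 FPKM at 4 h and 6 h (103.7 and 106.4), so its trough at 8 h came 4 h after that of CDC20. It then went from 71.0 FPKM at 10 h to 136 FPKM at 22 h. The second day held a single high point, 145 FPKM at 32 h, among values from 100.9 to 125 FPKM. The ratios of highest to lowest were 2.47 on the first day and 1.44 on the second. The second-day peak rested on the 32 h sample, and without it the ratio was 1.24 (alternative chosen after the values were seen). Without 0 h the first-day difference was 1.09 instead of 1.29 on the log2 scale.

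The ratio of peak to trough reached 2-fold for 3 of 9 members on the first day, CDC20, PTTG1 and UBE2S, where 11.6% of all genes did. On the second day it did so for UBE2S alone of the 9, where 8.24% of all genes did. The median difference between peak and trough was 0.57 on the first day and 0.52 on the second over the members, and 0.57 and 0.49 over all 12253 genes that averaged 1 FPKM or more. It was larger on the first day for 6 of 9 members and for 61.6% of all genes. With 16 h and 18 h kept, 4 members reached 2-fold on the first day, since CDC27 was at 2.07 instead of 0.37, and FBXO5 (0.92 instead of 0.45), FZR1 (0.90 instead of 0.57) and CDC16 (0.51 instead of 0.25) stayed below it. With a running mean over 3 time points UBE2S was at 0.70 on the first day, and without 22 h, an alternative chosen after the values were seen, it was at 0.96, which left 2 members each time. Without 32 h, UBE2S was still the 1 member past 2-fold on the second day (2.10). No share of all genes was counted under these alternatives, so their counts of members have no like comparison. The 11.6% leaves out 16 h and 18 h.

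The same measure was taken for lists of genes from the pathway. Among 23 APC/C substrates, 11 reached 2-fold on the first day and 1 (PLK1, a mitotic kinase) on the second, with median differences of 0.93 and 0.43. The second-day range of PLK1 rested on the 32 h sample, the mild STRIPE. It was at 126 FPKM there, with 88.0 FPKM at 34 h as its next highest value and 54.7 FPKM at 46 h as its lowest. The lists were not counted without 32 h. For CCNB1 the difference was 1.85 on the first day and 0.53 on the second. Among 12 G2/M reference genes, 11 reached 2-fold on the first day and 0 on the second, with medians of 1.42 and 0.45. Among 10 other APC/C subunits, 0 did on the first day and 1 (CDC26) on the second, with medians of 0.38 and 0.29. CDC20 and PTTG1 thus lay among the substrates and G2/M genes in this measure. CDC16, CDC27 and ANAPC1 lay below 2-fold on both days, as did CDC23, whose differences of 0.13 on each day were below those of all 10 other subunits.

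**Figure D2:**
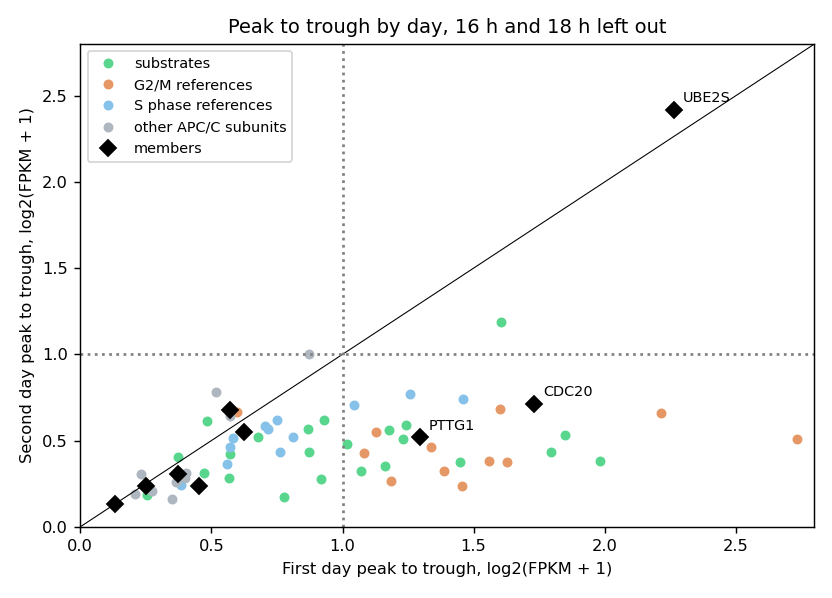
Difference between peak and trough on log2(FPKM + 1) on the first day (horizontal) and the second day (vertical), leaving out 16 h and 18 h, with 1 point per gene. Dotted lines mark 2-fold and the diagonal marks equal days. CDC20 and PTTG1 lie right of 1 and below the diagonal, UBE2S lies at 2.26 and 2.42, and the other 6 members lie below 1 on both axes.

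UBE2S, the chain-elongating enzyme, had the widest range, from 12.1 FPKM at 22 h through a median of 39.5 to 76.0 FPKM at 32 h. It was lowest at 22 h with 12.1 FPKM, then at 30 h with 13.4, 28 h with 17.6, 18 h with 17.9 and 16 h with 20.5 FPKM. It was highest at 32 h with 76.0 FPKM, then at 6 h with 61.8, 26 h with 60.7 and 34 h with 59.4 FPKM. At the other time points it lay between 31.2 and 50.3 FPKM. The low value at 22 h stood between 50.3 FPKM at 20 h and 42.3 FPKM at 24 h, so high and low values were neighbours in time.

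Each of these swings was uncommon in the table, but genes displaced at one of these hours were often displaced at another. The time points were picked for UBE2S after its values were seen, so the shares are descriptions. UBE2S was 1.85 below the mean of its neighbours at 22 h on the log2 scale, where 0.604% of genes were 2-fold or more below. It was 2.07 below the line between 26 h and 32 h at 28 h and 30 h, where 0.31% of genes were. It was 1.38 above its neighbours at 32 h, where 0.449% of genes were 2-fold or more above, and 0.96 above at 6 h, where 0.571% were 2-fold or more above. Of the 74 genes 2-fold or more below at 22 h and the 38 at 28 h and 30 h, 21 were below at both. The 2-fold limit was passed at all of 22 h, the pair of 28 h and 30 h, and 32 h by 8 genes, among them UBE2S, IFITM2 and GP1BB. Some listed genes lay above their neighbours at 22 h and at 28 h and 30 h, such as CDC26 (0.74 and 0.33) and TK1 (0.39 and 0.48). The pattern was therefore shared by these libraries and not particular to UBE2S.

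UBE2S overlaps RPL28, a ribosomal protein gene on the opposite strand, whose mean was 1057 FPKM against 40.7 FPKM for UBE2S. Of the 8 genes with the same swings, 7, UBE2S included, overlapped another gene of the table in GENCODE 29, against 36.5% of 12148 tested genes with an annotated position. Outside 16 h and 18 h, RPL28 was highest at 6 h (1584 FPKM) and 32 h (1558 FPKM), where UBE2S was also high. Displaced values at these hours were not particular to this pair. The member FZR1 (20.1 and 21.5 FPKM) and the substrate RRM2 (279 and 277 FPKM) were also highest at 6 h and 32 h. ANAPC1 was lowest there (13.5 and 13.2 FPKM). At 22 h, where UBE2S was lowest, RPL28 was at 976 FPKM, 0.06 above its neighbours on the log2 scale. The Spearman correlation of UBE2S with RPL28 was -0.03 over the 22 time points. Whether counting in the overlap has a part in the UBE2S values was not tested, and reads from UBE2S and its annotated pseudogenes UBE2SP1 and UBE2SP2 may also be shared.

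**Figure D3:**
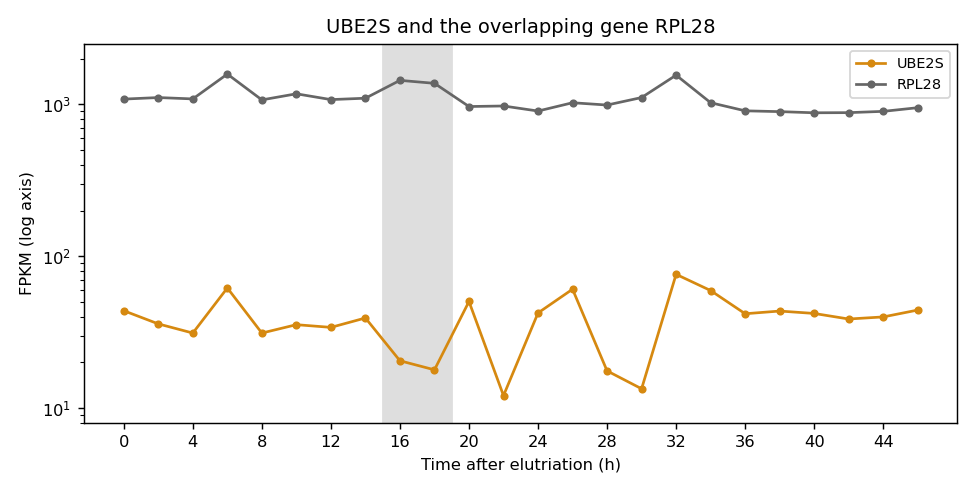
FPKM on a log axis against time after elutriation in hours for UBE2S and for RPL28, which overlaps it on the opposite strand, 1 sample per point, with 16 h and 18 h shaded. UBE2S is at 12.1 FPKM at 22 h and 13.4 FPKM at 30 h, where RPL28 is at 976 and 1110 FPKM.

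Among the subunits of the complex, CDC23 varied least. It ranged from 37.5 FPKM at 42 h through a median of 40.3 to 43.3 FPKM at 2 h, a coefficient of variation of 3.83% over the 22 time points. CDC23 overlaps KIF20A, a mitotic kinesin gene on the opposite strand that ranged from 3.59 to 29.5 FPKM, and their Spearman correlation was -0.33. CDC16 ranged from 36.9 FPKM at 6 h through a median of 42.3 to 52.9 FPKM at 18 h, with 45.5 FPKM at 46 h as its highest value outside 16 h and 18 h. CDC27 ranged from 41.7 FPKM at 0 h through a median of 48.5 to 178 FPKM at 18 h. ANAPC1 ranged from 12.5 FPKM at 18 h through a median of 17.8 to 21.4 FPKM at 20 h, and its lowest values outside 16 h and 18 h were 13.2 FPKM at 32 h, the mild STRIPE, and 13.5 FPKM at 6 h. The coefficients of variation of CDC16, CDC27 and ANAPC1 over the 22 time points were 5.64%, 7.70% and 13.9%. GENCODE 29 names pseudogenes after CDC27 (CDC27P1, CDC27P2 and CDC27P3) and ANAPC1 (ANAPC1P1), so reads of these genes could be split between copies.

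Whether the members followed a 24 h rhythm was tested with JTK. It takes for each gene the best Kendall S against a 24 h cosine set to 12 phases. Permutation p-values came from 100000 orderings of the time points and were Benjamini-Hochberg adjusted over all 12285 genes. The permutation takes time points as exchangeable, while neighbouring hours of 1 culture can be alike. A low p therefore does not separate a 24 h rhythm from other slow change. CDC16 passed at an adjusted permutation p of 0.05 (p = 0.022, phase of the peak 16 h), so 1 of 9 members was called where 11.9% of all genes were. Without 16 h and 18 h the adjusted permutation p of CDC16 was 0.064 and 0 of 9 members passed, where 16.2% of all genes did. There, 3 members (CDC16, CDC23 and ANAPC1) had an unadjusted permutation p under 0.05. The share of all genes under that unadjusted limit was not counted, so the 3 cannot be set against it. FZR1 and PTTG1 had adjusted permutation p-values of 0.15 and 0.22, with phases of 8 h and 0 h. CDC20 had 0.51, with its phase at 20 h, FBXO5 0.73 and UBE2S 0.99. A p that misses the threshold does not show that a transcript was constant.

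In the lists, the test called 2 of 10 other subunits, 1 of 8 checkpoint genes, 2 of 23 substrates, 7 of 12 S phase genes and 5 of 12 G2/M genes. Without 16 h and 18 h, where 16.2% of all genes were called, these counts were 3, 0, 5, 9 and 1 in the same order. None of the 5 G2/M genes called with all time points passed without 16 h and 18 h. The 1 called there was CENPA (adjusted permutation p = 0.043), which had not passed with all time points (0.16). The other subunits with the highest statistics were ANAPC2 (adjusted permutation p = 0.010), ANAPC15 (0.047) and ANAPC5 (0.13). Among genes of the spindle checkpoint, which restrains CDC20, they were TTK (0.028), BUB1B (0.051) and TRIP13 (0.055), and TTK was at 0.094 without 16 h and 18 h. Among substrates they were CDC6 (a replication licensing factor, 0.0022), CDCA3 (0.041), and CCNB2 and CDCA5, which shared the third place (0.051). The S phase genes MCM5, MCM2 and CCNE2 had phases of 4 h, 2 h and 2 h with and without 16 h and 18 h. The G2/M genes TOP2A, KIF14 and CDK1 had phases of 16 h, 18 h and 16 h, and without 16 h and 18 h phases of 14 h, 16 h and 16 h with adjusted permutation p-values of 0.064, 0.094 and 0.10.

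Values at 16 h and 18 h were compared with the straight line between 14 h and 20 h on log2(FPKM + 1), without a test. CDC27 was at 124 FPKM at 16 h and 178 FPKM at 18 h, against 48.6 FPKM at 14 h and 49.5 FPKM at 20 h, and both values lay far above the 41.7 to 54.4 FPKM of the other time points. Its mean deviation was 1.58, and over 16 other consecutive pairs of time points the same measure stayed between -0.17 and 0.14. CDC27 was the 1 member of 9 at least 2-fold above its flanks, where 8.95% of genes were. UBE2S was the 1 member at least 2-fold below (-1.17), where 7.11% of genes were, but its deviation lay within its own range of -2.07 to 1.73 at other pairs.

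FBXO5 was at 84.8 and 95.9 FPKM at 16 h and 18 h against 54.0 and 53.0 FPKM at the flanks, a deviation of 0.74. ANAPC1 was at 12.7 and 12.5 FPKM against 20.7 and 21.4 FPKM, a deviation of -0.70. Thus CDC27 was up and ANAPC1 down at these time points, where the study describes genes of both directions and a likely technical origin. Both deviations lay outside the range of the other pairs, which was -0.11 to 0.23 for FBXO5 and -0.34 to 0.34 for ANAPC1. CDC16 (0.24) and FZR1 (-0.48) also lay outside their ranges, while CDC20 (-0.38), PTTG1 (0.14) and CDC23 (0.07) lay inside.

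**Figure D4:**
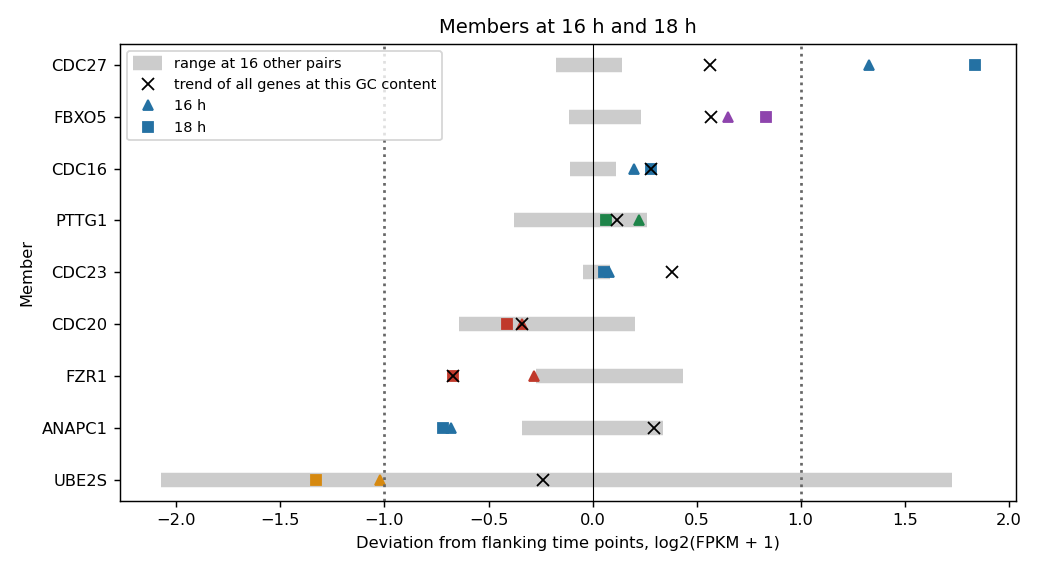
Deviation of each member at 16 h (triangle) and 18 h (square) from the line between 14 h and 20 h, on log2(FPKM + 1), with the range of the same measure at 16 other pairs of time points (grey bar) and the trend of all genes at the member's GC content (cross). Dotted lines mark 2-fold. CDC27 lies above 1 at both time points, UBE2S below -1 but inside its grey bar, and ANAPC1 below zero while its cross is above zero.

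The median deviation was 0.07 over the 9 members and 0.14 over all genes. Centring each time point on its median gene moved the median of all genes to 0.02 and upper-quartile scaling moved it to -0.06. CDC27, UBE2S, FBXO5, ANAPC1, CDC20 and FZR1 kept their sign under both scalings and under quantile normalization. CDC23 turned sign under all 3 (-0.05, -0.16 and -0.18), PTTG1 under upper-quartile scaling and quantile normalization (-0.09 and -0.13), and CDC16 under quantile normalization (-0.03). CDC16 measured 50.3 FPKM at 16 h and 52.9 FPKM at 18 h as deposited, so its direction depended on the scaling.

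Across 12148 genes with a known GC content (99.1% of those tested), the deviation went with the GC content of the longest transcript (Spearman's correlation of -0.56, a description across genes that are no replicates of each other). The median deviation was 0.47 for 4795 genes under 45% GC and -0.62 for 1652 genes over 60% GC. FBXO5 (34.2% GC), CDC27 (36.6%), CDC16 (45.6%) and PTTG1 (49.3%) deviated upwards, and CDC20 (57.9%) and FZR1 (64.0%) downwards. With the trend removed, FBXO5 was at 0.17, CDC20 at -0.04, PTTG1 at 0.03 and CDC16 at -0.04, and FZR1 turned to 0.19. CDC23 (43.2% GC) turned from 0.07 to -0.31, away from zero and outside its range of -0.04 to 0.08 at other pairs. CDC27 stayed at 1.02 and ANAPC1 (45.3% GC) was at -0.99, while UBE2S (55.7%) was at -0.94 and no longer passed 2-fold. The remaining deviations of CDC27 and ANAPC1 were outside their ranges at other pairs, which were not adjusted for GC content, and opposite in sign.

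**Figure D5:**
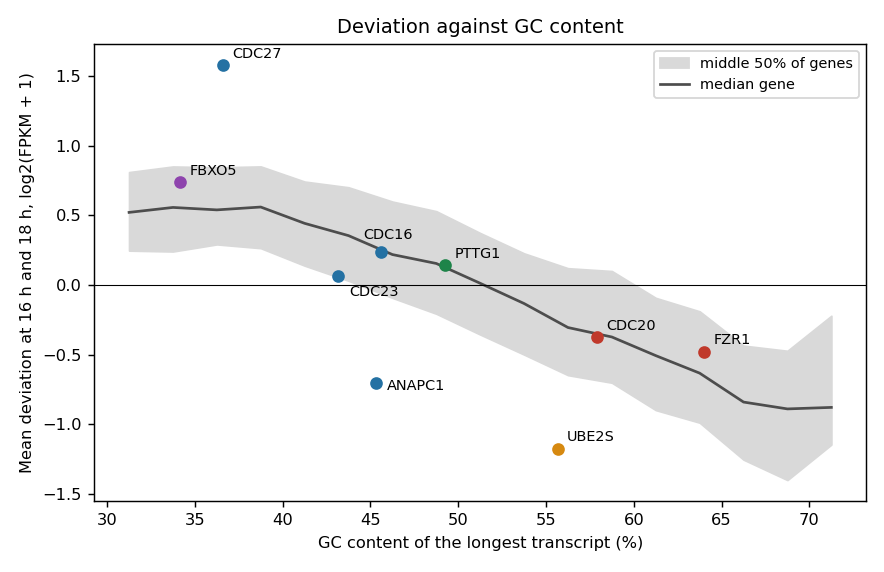
Mean deviation at 16 h and 18 h on log2(FPKM + 1) (vertical) against the GC content of the longest transcript in percent (horizontal) for the 9 members, with the median (line) and the middle 50% (band) of all genes in steps of GC content. FBXO5, CDC16, CDC23, PTTG1, CDC20 and FZR1 lie in the band, CDC27 lies above it, and ANAPC1 and UBE2S lie below it.

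Other subunits also differed at these time points. ANAPC2 was at 7.97 and 7.25 FPKM against 23.4 and 20.2 FPKM at the flanks, a deviation of -1.40, and ANAPC11, the RING subunit, was at 43.6 and 40.0 FPKM against 109.8 and 89.7 FPKM, a deviation of -1.23. Of the 10 other subunits, 2 were 2-fold below and 0 were 2-fold above. Of the 23 substrates, 4 were 2-fold above, led by ANLN (1.33), HMMR (1.20) and CKAP2 (1.17), with PLK1 the fourth (1.14), and 0 were below. With the GC trend removed, ANAPC2 was at -0.77 and ANAPC11 at -0.91, and of the substrates PLK1 (1.44) alone was past 2-fold, with ANLN at 0.83, HMMR at 0.63 and CKAP2 at 0.60. Of the 8 checkpoint genes, 0 passed 2-fold in either direction.

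The second day was compared with the first by limma on log2(FPKM + 1), with the hour within the day as a block and 10 pairs of matched hours, leaving out 16 h, 18 h, 40 h and 42 h. Of the 9 members, 0 passed an adjusted p of 0.05 in either direction, where 12.6% of genes were called higher and 6.8% lower on the second day. Of all 12253 genes tested, 4168 had an unadjusted limma p of 0.05 or below. Of the 9 members, only ANAPC1 did. Its difference was -0.15 ± 0.06 (SE, 10 pairs, limma adjusted p = 0.11), lower in 7 of 10 pairs, with means of 18.4 ± 2.65 and 16.4 ± 1.98 FPKM (SD over 10 hours). Matched hours are not replicates, so p measures the spread over hours within these libraries.

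For CDC20 the difference was 0.12 ± 0.17, for PTTG1 0.16 ± 0.14 and for UBE2S 0.17 ± 0.30 (SE, 10 pairs), and limma adjusted p-values were 0.67, 0.46 and 0.73. Means of CDC20 were 58.5 ± 25.1 FPKM on the first day and 59.7 ± 9.82 on the second, so the spread over hours was wider on the first day. Those of PTTG1 were 107 ± 33.2 and 115.5 ± 12.3 FPKM. CDC27 was lower on the second day in 9 of 10 pairs (-0.09 ± 0.05, limma adjusted p = 0.23), and CDC23 in 8 of 10 (-0.06 ± 0.04, limma adjusted p = 0.33). Differences of FBXO5, CDC16 and FZR1 were within 0.06 of zero.

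Among the other subunits, 3 of 10 were lower on the second day by the same limma test and 0 higher. They were ANAPC11 (-0.38 ± 0.10), ANAPC16 (-0.26 ± 0.05) and ANAPC15 (-0.22 ± 0.05), with limma adjusted p-values of 0.016, 0.0065 and 0.014. Among substrates, 3 of 23 were higher (AURKB, NUSAP1 and HMMR), and among checkpoint genes 1 of 8 (TTK, a kinase of the spindle checkpoint). Among G2/M genes, 8 of 12 were higher and 0 lower, and among S phase genes 0 were higher and 3 of 12 lower (MCM5, PCNA and UNG). Of all called genes, 65.0% were higher on the second day as deposited and 49.4% after centring on the median gene, so the split between directions depended on the scaling.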

How the data were processed

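Deposited FPKM values of 24 samples were used as the authors made them, with reads aligned by STAR and quantified and normalized with Cufflinks and Cuffnorm on GRCh37, per the submitters' processing notes. Versions, annotation and strand use are not given in the sources used here. The second table, deposited by the authors as a cleaned version, holds a score that equalled the Z-score followed by quantile normalization, and served as an alternative. Low FPKM values of 1526 genes with 1 transcript lay at whole reads in 20% to 37% of cases (within 0.05 of a whole number), so reads were not recovered, depth is unknown and no count model was used.

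Values were tested on log2(FPKM + 1), which understates changes of low genes. The JTK statistic, limma 3.58.1 and the deviation measures were run on the whole table, with a mean of at least 1 FPKM for the last 2, and were tested on simulated data. GENCODE 29 served for GC content, names, pseudogenes and overlaps only. Genes were named by rule: the members, in each list the 3 with the highest JTK statistic and up to 3 at least 2-fold off at 16 h and 18 h, and the 5 most like CDC20 and FBXO5. Other genes were named after their values were seen. The members and lists were chosen with earlier results of these data known. Alternatives were other periods, scalings, filters, pseudocounts, thresholds and time points.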

Additional observations from a re-analysis of the deposited data

How the results depend on the processing

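Of the 9 members, the number called rhythmic was 1 with a period of 24 h as reported. It was 0 when a period of 20 h was fitted instead, 0 without 16 h and 18 h and 0 by limma's cosinor test. With 16 h and 18 h interpolated by PCHIP it was 2, where ANAPC1 joined CDC16 (adjusted permutation p = 0.038). For CDC16 the adjusted p was 0.38, 0.064 and 0.062 in the first 3 of these. There, 1, 3 and 3 members had an unadjusted p under 0.05, a limit not counted over all genes. The cause was not tested. CDC16 alone was called under the remaining alternatives. Its adjusted permutation p was 0.033 with a period of 28 h, 0.019 with quantile normalization and 0.014 in the cleaned table. It was 0.012 with centring on the median gene and with upper-quartile scaling. With a mean of at least 1 or 10 FPKM it was 0.022 and 0.019. These alternatives called from 3.34% (28 h) to 16.2% (at least 10 FPKM) of all genes. Over all genes the test called 1460 as reported, 336 with a period of 20 h, 410 with 28 h, 1993 without 16 h and 18 h, 1108 (9.02%) by the cosinor test and 2093 (17.04%) with interpolation. The number of members past the fold limit at 16 h and 18 h was 2 as reported, 1 with the GC trend removed and 4 at 1.5-fold, where FBXO5 and ANAPC1 were added. Of all 12253 genes tested, 1968 were past the limit as reported, 4993 at 1.5-fold and 2652 at 0.1 as the pseudocount. Genes past the limit with the GC trend removed were not counted over the whole set. Second-day differences changed sign for FZR1 (0.029), FBXO5 (-0.047) and CDC16 (-0.0045) with all 12 pairs, and for FZR1 (0.00042) without 6 h, 8 h, 30 h and 32 h. None of these differences passed the test under any of the 7 alternatives run. Of 306 values per member and alternative, 245 kept their direction and side of the threshold or moved by less than the SD between neighbours. This differed by kind of result. For deviations at 16 h and 18 h, 32 stayed and 31 moved. For rhythm calls 95 stayed, most of them members not called either way. The SD of UBE2S was the widest (0.80), so its values were counted as moved less readily. Matched hours of the days were the only pairs, since each time point had 1 sample. Depth is unknown, so the counting error of the values cannot be given.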
